A study of Canis lupus familiaris with 30 samples.

Results

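The 8 canine follicular thyroid carcinomas (FTC) with the most transcript of the iodide transporter *SLC5A5* were compared with the 8 that had the least. Tumors were ranked by the *SLC5A5* read count divided by a size factor that corrects for sequencing depth, here called the normalized count. Of 30 tumors sequenced, 24 were ranked, which left 8 in the middle. The 5 tumors that the study classed as medullary and TC1088, an FTC the study also kept out of its comparison of FTC with medullary tumors, were not ranked. All 30 are primary thyroid tumors from dogs, taken as frozen tissue without any experimental treatment, and the labels give them a single group. The high and low groups are therefore defined by the measured *SLC5A5* level and not by the study, each tumor stands for 1 dog, and dogs differed in breed, age and sex.

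*SLC5A5* encodes the sodium-iodide symporter, which carries iodide from blood into thyroid follicular cells along the sodium gradient. In the follicle, hydrogen peroxide made by the dual oxidases (DUOX1 and DUOX2) is used to couple iodide to tyrosines of thyroglobulin (TG), the protein scaffold on which the hormones are made. Thyrotropin, acting through its receptor TSHR and cyclic AMP, and the lineage factor PAX8 drive this program. Loss of the symporter is known as a feature of dedifferentiated thyroid carcinoma and limits radioiodine treatment.

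The normalized *SLC5A5* counts that chose the high group were 120307 in TC1869, 80492 in TC2011, 70294 in TC1744, 37584 in TC1994, 32701 in TC2089, 28851 in TC22, 25993 in TC902 and 21714 in TC2110. In the low group they were 1502 in TC538, 1012 in TC67, 637 in TC815, 466 in TC1979, 312 in TC1164, 141 in TC1953 and 8.04 in TC1241, while TC812 had 0 reads, which allows up to 3 counts or a normalized count of 2.74 (counting error only). The lowest high tumor lay 14.5-fold above the highest low tumor. The upper boundary was narrow, since TC627, just outside the high group, had 21385. The lower boundary fell between TC1593, just outside the low group at 2801, and TC538 at 1502. These values describe the choice of tumors and were not tested.

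**Figure D1:**
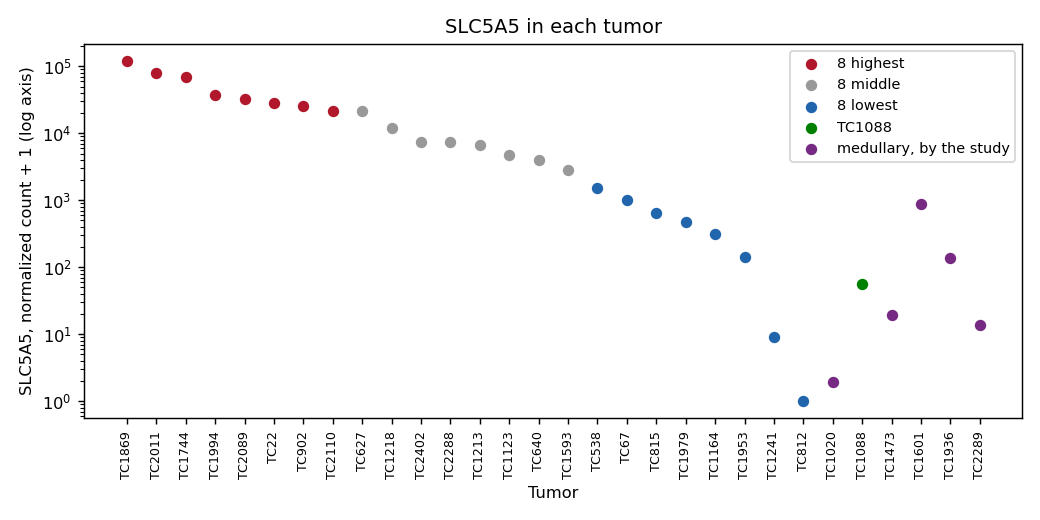
Normalized count of *SLC5A5* plus 1 (log axis) in each of the 30 tumors, colored by group, with the 24 ranked tumors in order from left to right. Values decline without a wide gap from 120307 in TC1869 to 141 in TC1953, and the last 2 ranked tumors, TC1241 and TC812, lie far below.

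Follicular cell markers were counted on both sides. Of *TG*, *PAX8* and *TSHR*, the lowest normalized counts among the 16 tumors were 8188 for *TG* (TC1979), 1832 for *PAX8* (TC538) and 1713 for *TSHR* (TC1953). The medullary tumors reached 213085 for *TG*, 1638 for *PAX8* and 3975 for *TSHR*. The lowest *PAX8* thus lay above every medullary tumor, while the lowest *TG* and *TSHR* did not. Counts of *TG* or *TSHR* alone do not set a tumor apart from the medullary ones. The calcitonin gene *CALCA*, which marks C cells, ranged from 0 to 7657 and was highest in TC22 among the high tumors and in TC812, at 3925, among the low. Total counts were 17786560 to 45148677 in the high and 12288945 to 27971609 in the low group, and the difference in means did not pass a two-sided exact permutation test (p = 0.0822, adjusted over 4 library measures p = 0.329, n = 8 and 8). TC538 stood apart with a size factor of 0.279 and 13515 genes of 10 or more counts, against at least 15637 in the high tumors, so the gene counts below are also given without it.

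No gene passed the test between the groups. With edgeR's quasi-likelihood test and Benjamini-Hochberg adjustment over 17175 genes, 0 genes (0%) had an adjusted p below 0.05 and the smallest adjusted p was 0.0813, shared by 6 genes. At an unadjusted p below 0.05 there were 858 genes higher in the high group (5%) and 981 lower (5.71%), together 10.7% of genes tested. DESeq2 on the same counts called 185 genes higher (1.08%) and 184 lower (1.07%), and gave no adjusted p as NA. In edgeR, splitting all 24 tumors into 12 against 12 gave 11 higher (0.0611%) and 32 lower (0.178%) of 18008 genes, and treating the *SLC5A5* level as a continuous term over the 24 gave 52 (0.289%) and 92 (0.511%). Leaving out TC538 gave 1 gene higher, the metallothionein *MT3*, and 5 lower, of which *MFAP3L*, *GFRA1*, *AMOT* and *TTYH1* have symbols. Leaving out TC2089 gave 3 higher (*FSTL4*, *MGLL*, *KIAA1191*), leaving out TC1953 gave 3 lower (*MFAP3L*, *GFRA1* and 1 without a symbol), and leaving out TC812 gave 2 lower (*MFAP3L* and the same gene without a symbol). Fold changes below are log2 of high over low in edgeR, with standard errors (SE), and are values rather than calls. In bulk tissue, fewer cells of a type and less RNA per cell cannot be told apart.

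No gene for iodide handling or hormone synthesis passed the test, though most fold changes were positive. Of 14 genes for iodide handling and hormone synthesis, 13 could be tested, 12 of them had a positive fold change (44.0% of all genes tested did), and their median log2 fold change was 0.96 against -0.08 over all genes. In this list 6 of the 13 had an unadjusted p below 0.05, all higher in the high group, against 5% of all genes tested. None passed adjustment in edgeR or DESeq2. *CFTR* fell under the count filter.

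*TG* ranged from 50633 to 6595771 (median 925326) in the high and from 8188 to 798169 (median 366075) in the low group, a log2 fold change of 2.46 (SE 1.01, edgeR adjusted p = 0.386), or 1.84 without TC1869. Low *TG* was found on both sides, since TC2089 and TC22, both high in *SLC5A5*, had 50633 and 106824. The 3 low tumors TC1979, TC1241 and TC815 were below every high tumor at 8188, 8833 and 11286.

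The oxidase genes and their partners had fold changes between 0.83 and 1.57. *DUOX1* had 13363 to 135872 (median 30303) against 3088 to 28886 (median 17846), and 4 high tumors exceeded every low tumor. Its log2 fold change was 1.44 (SE 0.53, edgeR adjusted p = 0.329). *DUOX2* followed at 1.57 (SE 0.71), and the maturation factors *DUOXA2* and *DUOXA1*, which the oxidases need to reach the surface, at 1.23 (SE 0.59) and 0.83 (SE 0.60). Single tumors moved these values: *DUOX2* was 0.86 without TC2011 and 2.68 without TC1164, *DUOXA2* 2.01 and *DUOXA1* 1.79 without TC1164.

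The largest fold change in the list was that of *LRP2*, the endocytic receptor megalin, which takes up thyroglobulin. It ranged from 12.2 to 16733 (median 2286) in the high tumors and from 8.85 to 2979 (median 71.8) in the low tumors, and its log2 fold change was 3.42 (SE 1.32, edgeR adjusted p = 0.347). Leaving out 1 tumor at a time gave 2.90 (TC1994) to 5.01 (TC1953). The high group spanned this whole range: TC2011 had 12.2 and TC1994 had 16733. *SLC5A8*, an apical monocarboxylate transporter related to *SLC5A5*, had a log2 fold change of 1.91 (SE 1.05) and a count of 0 in 1 low tumor, TC1241. It was 1.26 without TC1869 and 3.54 without TC538.

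The genes for apical iodide exit and iodide recycling had smaller fold changes, though the difference from the genes above was not tested. The log2 fold changes were 0.63 (SE 0.89) for the anion exchanger pendrin (*SLC26A4*), 0.11 (SE 0.44) for *SLC26A7*, 0.24 (SE 0.54) for the chloride channel *ANO1* and 0.19 (SE 0.36) for the deiodinase of iodotyrosines, *IYD*. For the potassium channel subunits that sustain iodide uptake, *KCNQ1* gave 0.96 (SE 0.37) and *KCNE2* -0.62 (SE 0.49), the only negative value in the list. *IYD* had 27025 to 65339 in the high and 13084 to 66419 in the low tumors, with broad overlap. *SLC26A4*, *SLC26A7*, *ANO1* and *IYD* changed sign under some alternatives.

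**Figure D2:**
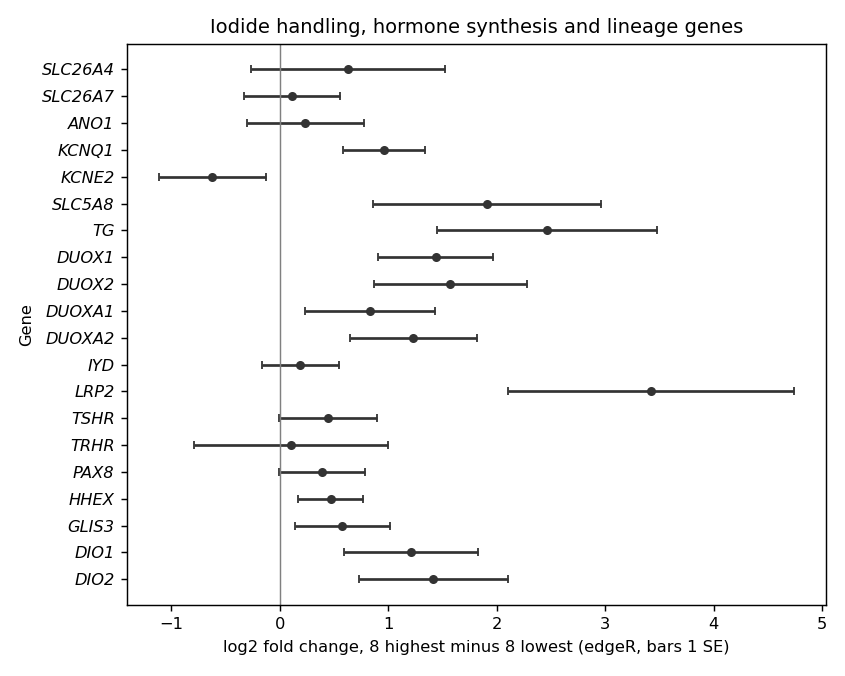
Log2 fold change of the 8 highest minus the 8 lowest tumors in *SLC5A5* (edgeR) for 13 iodide handling and hormone synthesis genes and 7 lineage, receptor and deiodinase genes, with bars of 1 SE. *LRP2* and *TG* lie farthest to the right at 3.42 and 2.46, while *IYD*, *SLC26A7* and *TRHR* are near 0 and *KCNE2* is the only gene left of 0.

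The 2 tumors nearly without *SLC5A5* differed from each other in other transcripts of the follicular program (they were singled out after their values were seen). TC812, with no *SLC5A5* reads, had 428179 of *TG*, 26774 of *DUOX1* and 18095 of *PAX8*. In TC1241, with 8 reads, *PAX8* was 15309, while *TG* was 8833 and *DUOX1* 3088, the lowest of the 16 tumors for *DUOX1*. Both tumors had more *PAX8* than the median of the low group, 12666.

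The lineage and receptor genes had fold changes below 1 on the log2 scale. *TSHR* had 2363 to 16055 (median 6756) in the high and 1713 to 17656 (median 3867) in the low tumors, and the fold change on the log2 scale was 0.45 (SE 0.45). *PAX8* gave 0.39 (SE 0.40), the homeobox factor *HHEX* 0.47 (SE 0.30), *GLIS3*, a zinc finger factor needed for thyroid hormone synthesis, 0.58 (SE 0.44) and the thyrotropin-releasing hormone receptor *TRHR* 0.10 (SE 0.90). In the list of 18 thyrotropin, cyclic AMP and lineage genes the median was 0.27, 13 were positive and only the phosphodiesterase *PDE4B* had an unadjusted p below 0.05. *DIO1*, which converts the prohormone T4 to active T3, gave 1.21 (SE 0.62), and *DIO2*, at normalized counts of 0 to 38.0, gave 1.42 (SE 0.69).

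Among 13 tested genes for hormone release, deiodination, transport and receptors the median was 0.13. Both genes with an unadjusted p below 0.05 are lysosomal proteases that can cleave thyroglobulin. *CTSD* (cathepsin D) had 6013 to 71525 (median 16432) against 3645 to 13663 (median 6526), a log2 fold change of 1.65 (SE 0.49, edgeR adjusted p = 0.217), and DESeq2 called it. *CTSB* (cathepsin B) gave 0.77 (SE 0.36). These and the other genes of the lists below were named after their values were seen.

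Of the signaling lists, that of MAPK output genes had the lowest median, -0.37, with 3 of 10 positive. *SPRY2*, a feedback inhibitor of receptor kinase signaling, had 17.7 to 141 (median 76.8) in the high and 21.5 to 394 (median 213) in the low tumors, a log2 fold change of -1.52 (SE 0.50, p = 0.00692, edgeR adjusted p = 0.270). The ephrin receptor gene *EPHA4* gave -1.29 (SE 0.50), and no other member had an unadjusted p below 0.05. In the IGF and PI3K list, 17 genes with a median of 0.14, *IGF1* gave 1.74 (SE 0.64) and *IGFBP5* -0.93 (SE 0.44).

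The remaining lists had medians near that of all genes. They were -0.05 for 7 sodium gradient genes, which build the gradient the symporter uses, -0.02 for 6 transporter trafficking genes and -0.04 for 15 retinoid receptor and chromatin enzyme genes. They were -0.24 for 17 TGF-beta and mesenchymal genes, -0.18 for 20 proliferation genes and -0.03 for 15 glycolysis and hypoxia genes. None of these 6 lists had a member with an unadjusted p below 0.05, except *HK2* in the last. No gene beside *SLC5A5* in the gene order of the RefSeq annotation overlapped it, and the nearest 4 that were tested, *ARRDC2*, *KCNN1*, *CCDC124* and *JAK3*, gave 0.89 (SE 0.58), -0.58 (SE 0.59), 0.52 (SE 0.34) and 0.29 (SE 0.40).

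**Figure D3:**
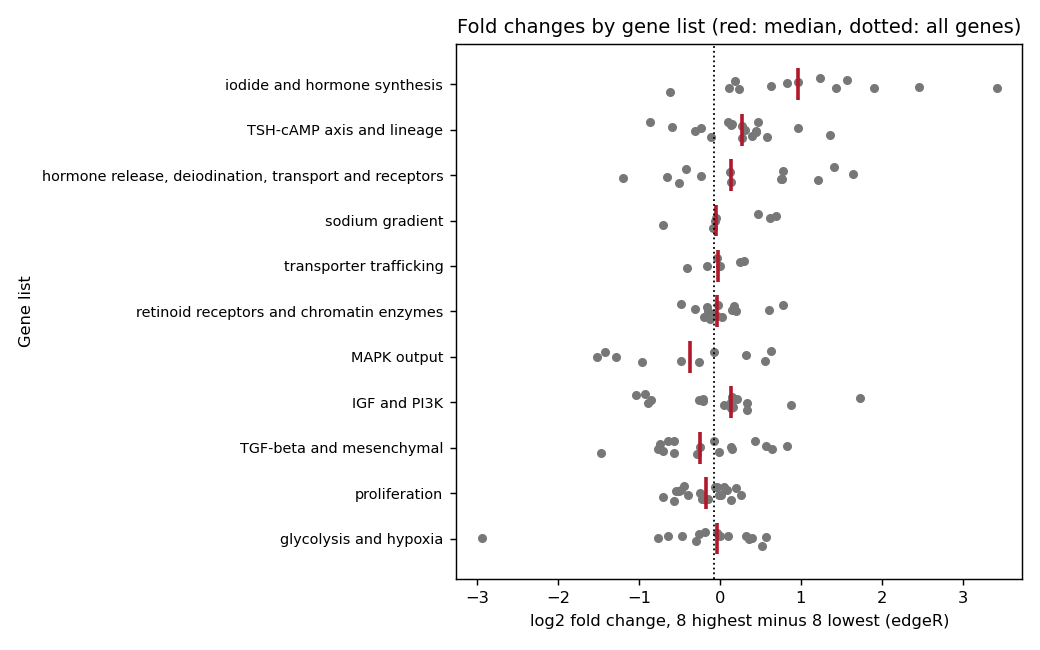
Log2 fold change of the 8 highest minus the 8 lowest tumors (edgeR) for each tested member of 11 gene lists, with the list median in red and the median of all 17175 genes dotted. The iodide and hormone synthesis list lies to the right of the others with a median of 0.96, the MAPK output list has the lowest median at -0.37, and *HK2* is the single point near -2.94.

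The 12 genes of smallest p on the high side had adjusted p-values from 0.0813 to 0.0985 in edgeR. For 9 of them at least 7 of the 8 high tumors lay above every low tumor. For 5 at least 7 of the 8 low tumors lay below every high tumor. The genes were picked by p between these same groups, so this separation is no further support. Its share over all genes is not given. DESeq2 called all 12, the split into 12 against 12 called 3 and the continuous term called 6. Over all genes these fits called 1.08%, 0.0611% and 0.289% higher. They share the tumors from which the 12 were picked, so the calls are no separate support. *FSTL4*, a secreted follistatin-like protein, led the 12. It had 183 to 8117 (median 3734) in the high and 21.5 to 608 (median 164) in the low tumors. Its log2 fold change was 4.18 (SE 0.72), and TC2089 was the only high tumor inside the low range. In the 12 against 12 split its log2 fold change was 1.68, with an edgeR adjusted p of 0.396.

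*ALAS1*, the rate-limiting enzyme of heme synthesis, had 11349 to 32129 (median 19878) against 2954 to 11975 (median 4491), a log2 fold change of 1.81 (SE 0.35). TC2089 was again the only high tumor within the low range. *MGLL*, the lipase that releases fatty acids from monoacylglycerols, gave 3.06 (SE 0.60), and *UCP2*, a carrier of the inner mitochondrial membrane, gave 1.63 (SE 0.34). *PEPD*, a peptidase for dipeptides that end in proline, did not overlap, with 5723 to 15743 against 724 to 4823 and a log2 fold change of 1.79 (SE 0.38).

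*ADM2*, which encodes the peptide hormone adrenomedullin 2, ranged from 11299 to 161758 (median 35277) in the high and from 1144 to 15575 (median 3166) in the low tumors. All low tumors but TC1164 were below every high tumor, and its log2 fold change was 3.40 (SE 0.67), or 3.99 without TC1164. The others were the potassium channel gene *KCNC4* at 2.65 (SE 0.52), the phospholipase *PLCH1* at 2.24 (SE 0.45), the junction protein periplakin (*PPL*) at 1.55 (SE 0.32), the stress sensor *GADD45G* at 2.71 (SE 0.57) and the sialyltransferase *ST6GALNAC1* at 2.99 (SE 0.64). *PCDHA13*, a protocadherin, had 2278 to 6537 against 29.2 to 1699 without overlap (log2 fold change 2.66, SE 0.55), but genes of the protocadherin alpha cluster share exons and its reads may come from its neighbors.

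On the low side, the 12 genes of smallest p under the same limits had edgeR adjusted p-values from 0.0813 to 0.121. Among genes that these limits left out, *NEGR1* (edgeR p = 2.6e-05) and *MMP25* (edgeR p = 8.7e-05) had smaller p-values than most of the 12. DESeq2 called all 12, the 12 against 12 split 7 and the continuous term 5. Over all genes these fits called 1.07%, 0.178% and 0.511% lower. The 12 were picked by p from tumors that these fits share, so the calls are no separate support. For 3 of the 12 at least 7 of the 8 high tumors lay below every low tumor. For 2 at least 7 of the 8 low tumors lay above every high tumor. As on the high side, this separation is no further support, and its share over all genes is not given. *MFAP3L*, a membrane glycoprotein, had 5.24 to 98.5 (median 31.2) in the high and 60.0 to 1856 (median 736) in the low tumors, a log2 fold change of -4.29 (SE 0.70). It passed the test when TC538, TC1953 or TC812 was left out.

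*GFRA1* had the largest fold change of these. It encodes the co-receptor through which GDNF activates RET. Its normalized counts were 0 to 75.8 (median 9.89) in the high tumors and 23.3 to 23490 (median 1842) in the low tumors, and the log2 fold change was -8.0 (SE 1.43), with -6.89 without TC1241 and -8.82 without TC2110. The 6 low tumors TC1241, TC815, TC812, TC1979, TC1164 and TC67 lay above every high tumor at 23490, 8262, 3708, 2094, 1591 and 357, while TC538 and TC1953 lay within the high range. *RET* itself gave -0.35 (SE 0.68).

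*AMOT*, whose product angiomotin binds the Hippo pathway effector YAP, was the low-side gene of these 12 whose groups did not overlap. It had 1005 to 2567 (median 1670) in the high and 2821 to 10250 (median 4579) in the low tumors, a log2 fold change of -1.69 (SE 0.31). *ERBB3*, a receptor of the EGF receptor family, had 119 to 658 (median 256) against 156 to 3171 (median 1546). Its log2 fold change was -2.54 (SE 0.55), but it was -0.75 in the 12 against 12 split, and the middle tumors reached 3574.

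*F13A1*, the coagulation factor XIII A chain, spanned 80.4 to 35315 (median 2804) in the low tumors and 99.6 to 605 (median 284) in the high. The 5 low tumors above every high tumor included TC67 at 35315 and TC1241 at 23623, while TC812 at 80.4 was below all high tumors. Its log2 fold change was -4.86 (SE 1.03), or -4.13 without TC67. Lipid genes were *ELOVL2*, an elongase of polyunsaturated fatty acids, at -3.94 (SE 0.79) and *MFSD2A*, a transporter of lysophospholipids, at -2.90 (SE 0.68). *HK2*, the hexokinase that starts glycolysis, gave -2.94 (SE 0.67), or -3.54 without TC2110, with 11.3 to 150 against 60.8 to 930. The remaining 4 were the adhesion protein gene *LSAMP* at -3.42 (SE 0.73), the receptor auxiliary subunit gene *GSG1L* at -4.42 (SE 0.91), the transmembrane collagen gene *COL25A1* at -4.04 (SE 0.93) and the ciliary transport gene *IFT22* at -1.78 (SE 0.40).

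**Figure D4:**
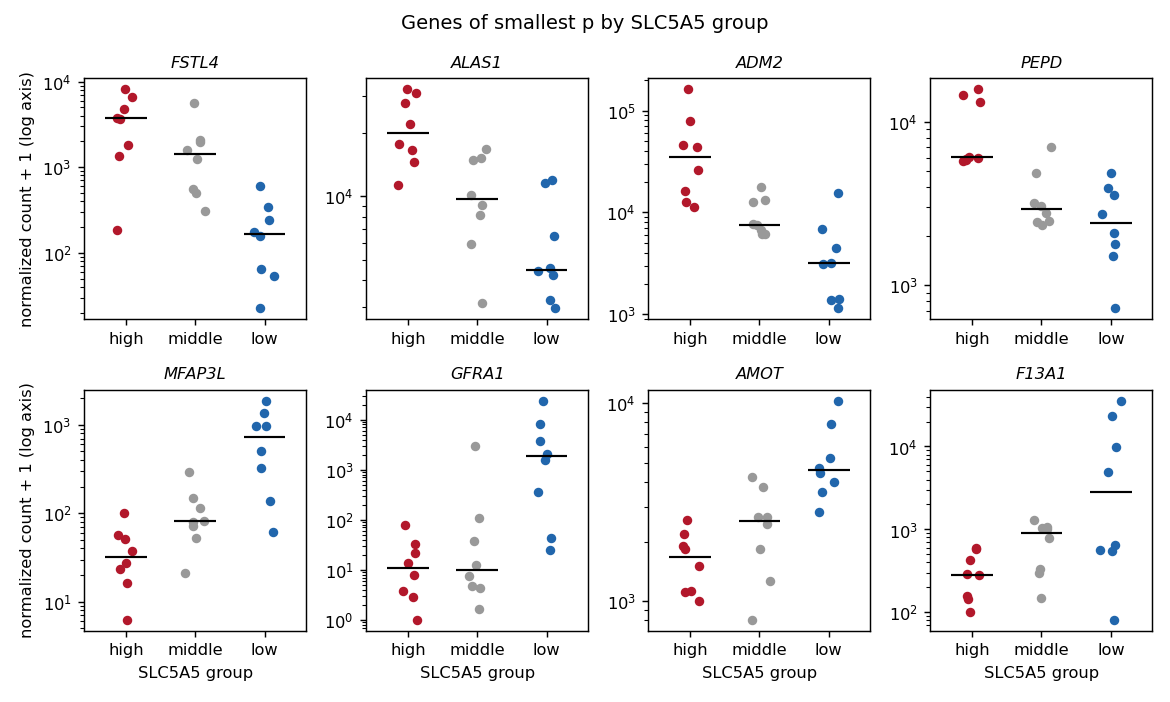
Normalized count plus 1 (log axis) of 8 of the named genes of smallest p in the 8 high, 8 middle and 8 low tumors, with a line at each median. *FSTL4*, *ALAS1*, *ADM2* and *PEPD* descend from high to low and *MFAP3L*, *AMOT* and *F13A1* ascend, while the middle tumors have a median of *GFRA1* (8.95) as low as that of the high tumors (9.89) and reach up to 2958.

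Across all 17175 genes, 7 had groups that did not overlap (0.0408%). Besides *PEPD*, *PCDHA13* and *AMOT*, these were *CA12*, a membrane carbonic anhydrase, higher in the high group at 2136 to 7734 against 13.1 to 2078, and the acylhydrolase-like gene *LYPLAL1*, the zinc finger gene *ZNF3* and the interferon-induced gene *OASL*, lower in it. These 4 were named after their values were seen. *OASL* had 171 to 447 against 455 to 1427, and *ZNF3* differed by only -0.46 on the log2 scale (SE 0.20).

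Of the 17175 genes tested, DESeq2, the 12 against 12 split and the continuous term shared 4 called higher and 14 called lower, although all 3 use the same tumors. *ADM2*, *MGLL* and the matrix metalloproteinase *MMP21* were among the 4, with 1 gene that has no symbol. Lower were *MFAP3L*, *GFRA1*, *F13A1*, *LSAMP*, *TTYH1*, *PLPPR1*, *PTPN5*, *FOXI2*, *MMP25*, *KCNT1*, *NEGR1* and *TRIB2*, and 2 without a symbol. Some of these had small counts even in the low tumors, with at most 106 for *NEGR1* and a median of 23.8 for *KCNT1*. In those tumors *PTPN5* had a median of 33.9 and reached 1598, and *PLPPR1* ranged from 0 to 1712. *TRIB2*, a pseudokinase, had 572 to 1909 against 1212 to 5201 and a log2 fold change of -1.30 (SE 0.32).

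The 8 middle tumors, which the comparison did not use, give a view of these genes in other tumors. Among them, the mean of the 4 with more *SLC5A5* minus that of the 4 with less had the sign of the fold change for 8 of the 12 genes on the high side and 11 of the 12 on the low side (79.2% of the 24, against 46.6% of all genes). On the high side *FSTL4* (-0.60 on the log2 scale), *PEPD* (-0.47), *GADD45G* (-0.44) and *PLCH1* (-0.42) went the other way. On the low side *ERBB3* (0.99) did. Some of the differences with the same sign were small, such as -0.10 for *AMOT*. The counts are given without a test, and the genes are not independent of each other.

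Markers of other cells are given beside these results. All 8 fibroblast markers had a positive fold change (44.0% of all genes tested did) and 4 of 8 were higher with an unadjusted p below 0.05 (5% of all genes were) (*COL1A1* 2.29, SE 0.61, *COL3A1* 2.02, SE 0.49, *COL1A2* 1.14, SE 0.43 and *FAP* 1.97, SE 0.84). None passed adjustment in edgeR, while DESeq2 called *COL1A1* and *COL3A1*. Their summed normalized count was 18666 to 94058 (median 39511) in the high and 8045 to 47442 (median 10468) in the low tumors. The highest sum, 94058, was that of TC2089, the high tumor with the least *TG* and *TSHR*. Of 5 tested C cell markers 4 were positive. Of these 3 were higher with an unadjusted p below 0.05 (*SCG2*, *SCG3*, *PCSK1*), against 5% of all genes. The C cell sums were 209 to 9147 (median 1318) against 169 to 3996 (median 358), and the 9147 was that of TC22. *SCG2* had low medians, 11.8 against 2.06, and reached 403 in TC22. *PCSK1* had medians of 21.0 against 11.6 and reached 633 in TC1994. *CALCA* had a median of 510 against 32.9 and a log2 fold change of 1.44 (SE 1.40, edgeR adjusted p = 0.746), and it was the C cell marker that DESeq2 called. Of 5 tested skeletal muscle markers 2 were higher with an unadjusted p below 0.05 (*CKM*, *DES*), against 5% of all genes. The muscle sums were 1535 to 5036 against 495 to 5101.

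All 7 endothelial markers were positive, their fold changes had a median of 0.61 on the log2 scale, and their sums were 8811 to 27638 (median 20058) against 5705 to 30502 (median 11576). Of these *TEK* alone had an unadjusted p below 0.05, and DESeq2 called it. Of 6 tested T and NK cell markers 2 were positive, and the median was -0.20 on the log2 scale. Their sums were 61.2 to 2747 against 88.6 to 383, and the 2747 was that of TC1994, with 423 in TC1744 next. Only *CD4* had an unadjusted p below 0.05, and DESeq2 called it, while *CD3D*, *CD3E*, *CD8A* and *IL7R* had negative fold changes. No marker of the macrophage, B and plasma cell, neutrophil, adipocyte, parathyroid or red cell lists had an unadjusted p below 0.05. The sums were 4737 to 14587 against 2754 to 9218 for macrophages, 8025 to 20308 against 7837 to 33297 for B and plasma cells, 406 to 3157 against 164 to 3857 for neutrophils, 14.2 to 239 against 3.59 to 50.7 for adipocytes, 4.37 to 111 against 4.48 to 472 for parathyroid and 22.5 to 104 against 31.2 to 126 for red cells. The 3 follicular markers summed to 63623 to 6643188 against 25580 to 817656. No marker was at 0 in every tumor of a group. The part of these other cells in the fold changes above was not tested.

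**Figure D5:**
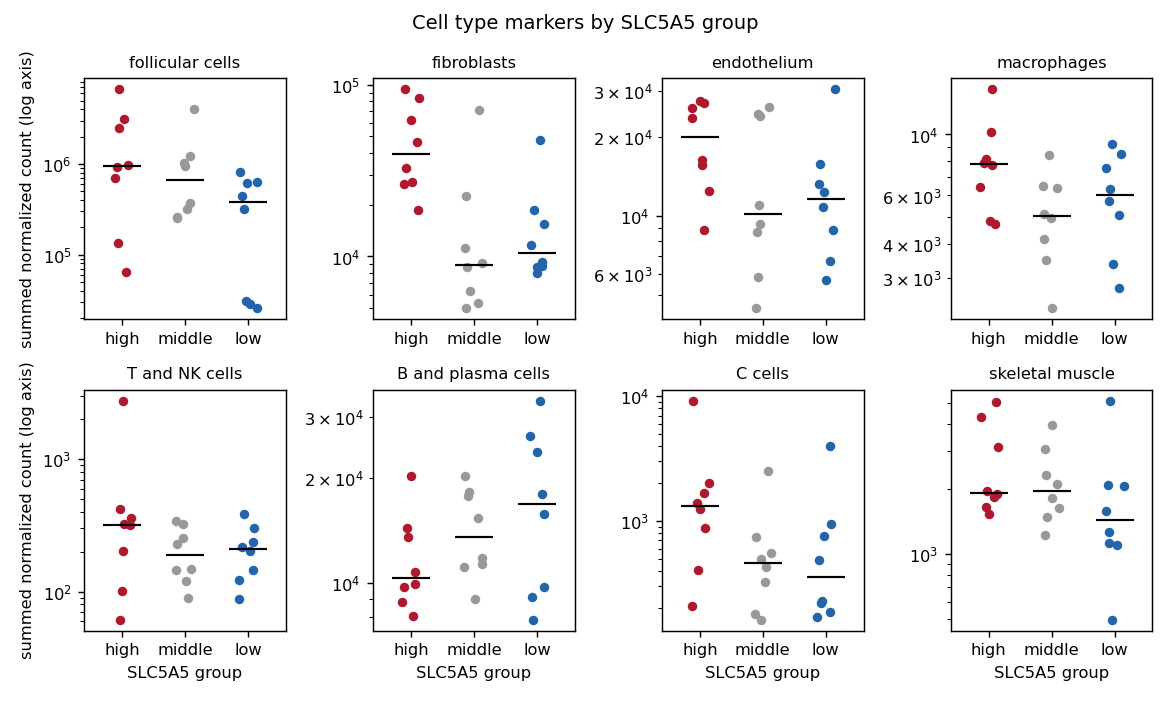
Summed normalized count (log axis) of the markers of 8 cell types in the 8 high, 8 middle and 8 low tumors, with a line at each median. The fibroblast sums have a median of 39511 in the high and 10468 in the low tumors, while the other types overlap over most of their range.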

How the data were processed

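Total RNA from 30 canine thyroid tumors was sequenced from libraries depleted of ribosomal RNA. With STAR, the authors aligned reads to CanFam3.1, and they deposited raw counts of reads per Ensembl gene. The strand setting of the counting is not given in the sources used here, so overlapping genes on opposite strands may share reads. The table held 30424 genes, 15780 with a symbol, and 0 columns of no tumor. Counts per tumor were 12288945 to 45148677 among the 24 ranked tumors, and the sources used here mention no molecular identifiers. No pair of tumors had identical counts (0 pairs).

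Size factors were the median of ratios over 15611 genes that every one of the 30 tumors expressed, and levels are log2 of the normalized count plus 1. Genes that reached 10 counts in 5 or more of the 16 tumors were tested with edgeR 4.0.16 (TMM, quasi-likelihood, R 4.3.3) and Benjamini-Hochberg adjustment. *SLC5A5* was left out of the test. The SE is the absolute log2 fold change divided by the square root of F. DESeq2 1.42.0 was an alternative, and library measures were tested by exact permutation (12870 splits, scipy 1.17.1). The code was tested on simulated data. P-values measure the spread between tumors of different dogs.

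Named were the iodide and hormone synthesis genes (1 gene of that list and of the follicular markers is not reported here), 7 lineage, receptor and deiodinase genes, and, since fewer than 5 genes were called, the 12 of smallest p in each direction whose symbol stood on 1 row and whose median normalized count in the higher group reached 100. In each other list up to 4 called members were to be named, and none was called. The tumors, gene lists and tests were chosen with earlier results of these data known. The description of the middle tumors was added after the data were seen. Genes beside *SLC5A5* were taken from the order of genes in a RefSeq table of another assembly, whose coordinates are not printed, and no sequences were used here. Figures were drawn with matplotlib 3.10.9.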

Additional observations from a re-analysis of the deposited data

Results flagged for a closer look

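In 11 of 98 group and measure combinations examined, 1 tumor lay far from the other 7 of its group by Dixon's test, which chance does in about 1 in 20. Levels here are log2 of the normalized count plus 1. In the high group, *SLC26A7* in TC2011 was low at 10.36, *KCNQ1* in TC1744 high at 9.63, *DIO1* in TC2089 low at 6.12 and *MFSD2A* in TC1869 high at 8.99.

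In the low group, *ANO1* in TC1979 was high at 11.12, *DUOXA1* in TC1164 high at 14.42, *PAX8* in TC538 low at 10.84, *DIO1* in TC815 low at 5.36, *MGLL* in TC1979 high at 11.17 and *PLCH1* in TC1241 low at 4.25. TC538 also had the fewest genes with 10 or more counts, 13515.

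*SLC5A5* was also counted in tumors outside the comparison. Its normalized count was 54.8 in TC1088, and 18.2 in TC1473, 866 in TC1601, 134 in TC1936 and 12.8 in TC2289, which the study classed as medullary. Each was above the 3 counts that a count of 0 allows, while the medullary tumor TC1020 had 1 read (0.967) and was not. The medullary tumor TC1601 thus had more than 6 of the 8 low follicular tumors.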

How the results depend on the processing

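The number of genes called depended on the method. It was 0 in each direction in edgeR, also with DESeq2 size factors, without a count filter, with a stricter one, with TC1088 included and with 6 against 6. DESeq2 called 185 higher and 184 lower, 12 against 12 called 11 and 32, and the continuous term 52 and 92. Past a log2 fold change of 2, DESeq2 called 235 genes and 12 against 12 called 37. Leaving out 1 tumor gave 0 to 3 higher, 0 to 5 lower and 0 to 5 past a log2 fold change of 2. The cause was not tested. Ranking by TMM-scaled *SLC5A5* counts gave the same groups.

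The difference in mean total counts ranged from 4791500 to 8700300 without 1 tumor. Without TC1994 (8630500) or TC2089 (8700300) the exact permutation test gave p below 0.05 before adjustment over the 4 library measures. The size factor difference was -0.0223 with 6 against 6 and ranged from 0.0379 to 0.193 without 1 tumor. The difference in genes with 10 or more counts was -33.25 with TC1088 included, -212 with 6 against 6 and -31 with 12 against 12, and it ranged from -45.1 (without TC538) to 403 without 1 tumor.

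Log2 fold changes of 5 named genes changed sign. *SLC26A4* ranged from -0.10 (without TC1869) to 1.87 without 1 tumor. *SLC26A7* ranged from -0.067 (TC902) to 0.47 and was also below 0 without TC1241 or TC1979. *ANO1* was -0.16 with TC1088 included and ranged from -0.18 (TC22) to 0.96 without 1 tumor. *IYD* was -0.0088 with 6 against 6. *TRHR* was -0.012 with the stricter filter and ranged from -0.37 (TC22) to 0.63 without 1 tumor, below 0 also without TC902, TC1953, TC1979, TC67 or TC812. The other 994 values of named genes kept their direction and their side of the threshold, and 42 kept their direction and passed it. The median of the iodide and hormone synthesis list ranged from 0.78 to 1.74 without 1 tumor, highest without TC1164. No paired analysis was possible because each tumor stands for 1 dog.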
